A study of Mus musculus with 34 samples.

Results

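Brushed tracheal epithelium of Gprc5a-/- mice was compared between 4 months after a course of the tobacco nitrosamine NNK (t4) and the end of that course (t0). The members were all libraries that the labels put at those times, 6 at t4 and 6 at t0, which is 12 of the 34 libraries in the series. Of the 24223 genes in the count table, 14847 passed a filter on low counts and were tested. Every mouse carried the Gprc5a deletion, which removes an orphan receptor of lung epithelium known as a tumour suppressor. At t0, mice had received NNK at 50 mg/kg body weight by intraperitoneal injection, 3 times a week for 8 weeks, and were brushed directly afterwards. At t4, mice had received the same course and had then lived 4 months without NNK. A baseline group of 6 Gprc5a-/- mice, brushed before any NNK, is used here to place the levels. The labels give an age of 6 to 8 weeks for all groups, which the design text places at the time of dosing (8 weeks), and name no strain or sex. Each library came from its own mouse. Time since NNK and age changed together, unexposed mice of the later age were not analysed here, and both cannot be told apart.

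The tracheal lining is kept up by basal cells, stem cells that give rise to secretory club cells and to multiciliated cells whose beating clears mucus. NNK is activated by cytochrome P450 enzymes, which are abundant in club cells, to agents that alkylate DNA. After injury, basal cells are known to divide, squamous keratins can appear in the surface layer, DNA damage switches on targets of the tumour suppressor p53, and macrophages enter the airway. The comparison addresses which of these transcripts differ once exposure has stopped.

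The libraries held 18574883 to 30271690 counts at t0 and 15625264 to 29979837 at t4. On log2(CPM + 1) of the genes tested, where CPM is counts per 1000000 after TMM scaling, component 1 held 56.05% of the variance and set the groups apart. The t0 library 359 lay nearest to t4 (−5.16, against −64.3 to −47.4 for the other t0 libraries and 42.8 to 53.3 at t4). Component 2 held 8.52% and was lowest in t4 336 (−48.3, against −17.1 to 28.0 in the other 11). Haemoglobin transcripts took 22.8% of counts in t0 357 and 25.5% in t4 371, and at most 3.06% in the other 10. Counts and values that move by over 1.5 times without these 4 libraries are given with and without them. Transcripts of club (Scgb1a1), multiciliated (Foxj1) and basal cells (Krt5) were present in all 12 libraries. Gprc5a, the deleted gene, held 6 to 23 counts at t0 and 6 to 45 at t4, or at most 1.06 and 3.11 CPM (log2 fold change 1.11, adjusted p = 0.18). With all libraries this fold change was the median of the 3 genes tested of its family. That median was 0.57 without t4 336 and 0.45 without the 4 libraries.

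**Figure D1:**
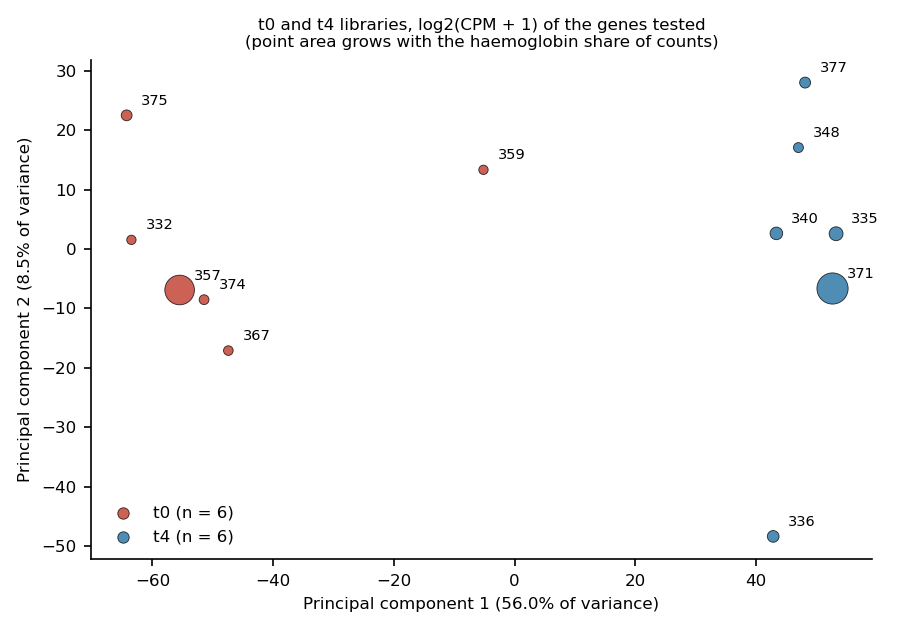
Principal components 1 (x axis) and 2 (y axis) of the 12 libraries, computed on log2(CPM + 1) of the 14847 genes tested; each point is 1 library, labelled by animal number, red for t0 and blue for t4, and its area grows with the haemoglobin share of its counts. The t4 libraries lie at 42.8 to 53.3 on component 1 and 5 of the t0 libraries below −47, with t0 359 between the groups and t4 336 lowest on component 2.

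Between t4 and t0, 4953 genes (33.4%) differed at an adjusted p under 0.05 by edgeR's quasi-likelihood test, 2362 of them higher at t4 (15.9% of the genes tested) and 2591 lower (17.5%). A change of at least 2-fold was seen for 1344 higher (9.05%) and 1203 lower genes (8.1%), and of at least 4-fold for 514 and 447. The 6 t4 libraries lay above all 6 t0 libraries for 1366 genes (9.2%) and below them for 1315 (8.86%). The median log2 fold change over all genes was −0.06. Of the genes called, 47.7% were higher with TMM scaling, 36.8% when counts were scaled by library totals alone (which moved the median of all genes to −0.17), 52.5% with haemoglobin genes left out, and 55.6% without the 2 libraries rich in haemoglobin. These shares are the background for every list of genes below, and in tissue RNA fewer cells of a type and less RNA per cell cannot be told apart. In what follows, a run of 3 values gives the lowest, median and highest CPM of a group's 6 libraries. The brackets that follow hold the log2 fold change of t4 over t0 (± SE where shown) and edgeR's adjusted p over all 14847 genes. The SE was derived from the test, as the size of the log2 fold change over the square root of its F statistic.

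**Figure D2:**
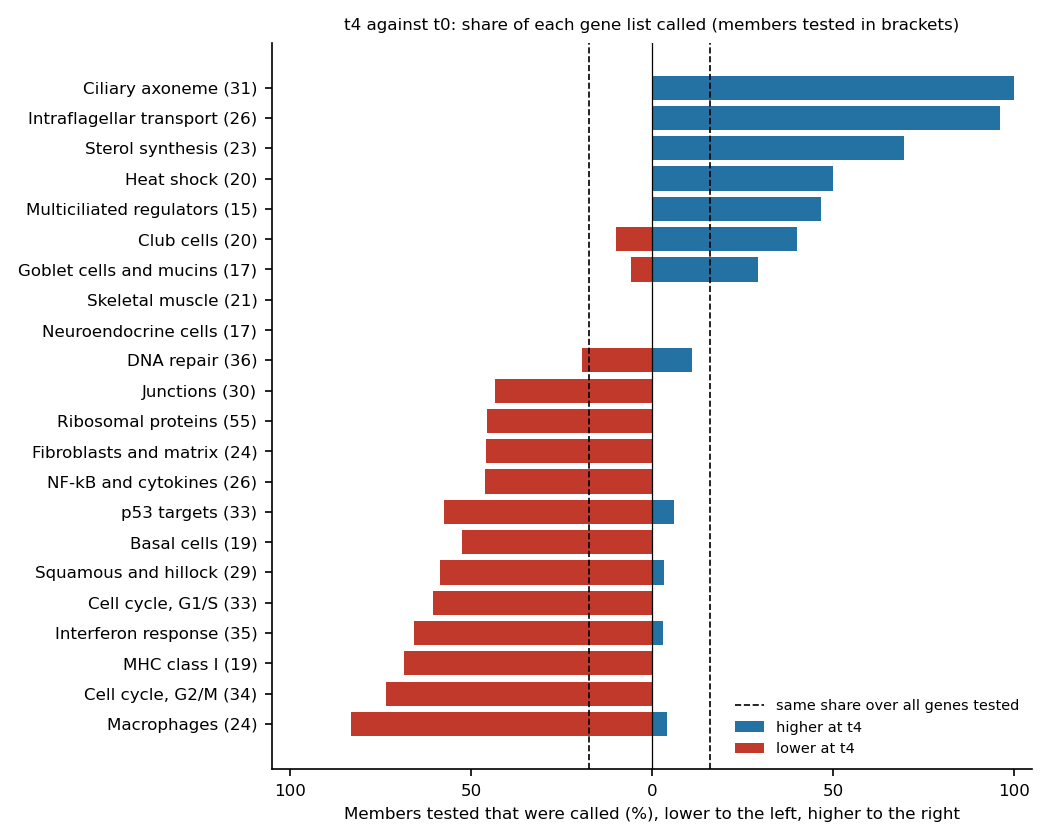
Share of each gene list called in t4 against t0 (x axis, percent of the members tested; lower to the left in red, higher to the right in blue), with the number of members tested in brackets and dashed lines at the shares over all genes tested (17.5% lower, 15.9% higher). Ciliary lists reach 96.2% to 100% higher, macrophage and mitotic lists 83.3% and 73.5% lower, and the lists of skeletal muscle and neuroendocrine cells have no called member.

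Several secretory transcripts of the club cell were higher at t4, and the main one by a factor of 28.9. Scgb1a1, the most abundant club cell secretory protein, on chromosome 19, 9083642 to 9087956 (mm10), was at 242, 672 and 1283 CPM at t0 and 10910.5, 18826 and 31643 CPM at t4 (4.85 ± 0.39, adjusted p = 2.9e-09). Every t4 library was above every t0 library. Its relative Scgb3a1, a secretoglobin of the upper airway, rose from 274, 478 and 767 to 1789.6, 3789.6 and 6696 CPM (2.88 ± 0.33, adjusted p = 1.9e-07). Hp, the haemoglobin scavenger haptoglobin, rose from 20.4, 29.2 and 41.9 to 108, 142 and 257 CPM (2.41 ± 0.33, adjusted p = 2.4e-06). In neither gene did the groups overlap. Of the 20 club cell genes tested, 8 were higher and 2 lower (40% and 10%), with a median log2 fold change of 0.54. Without the 4 libraries that stand apart the counts were 6 and 2.

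The list did not move as a block. Summed over its members, the groups overlapped, at 39408, 48302 and 62802 CPM at t0 and 50008, 66503 and 81992 CPM at t4. Of its cytochrome P450 genes, Cyp2f2 held 2473746 raw counts over the t0 libraries and 1686538 over the t4 libraries. Cyp2a5 held 497726 and 435393, and Cyp2b10 26670 and 36625. These sums were not scaled, so differences in library totals enter them. None of these P450 genes was among the lower calls of the list. Gsto1, a glutathione transferase, fell from 7012, 7626 and 11317 to 2722, 3338 and 3850.2 CPM (−1.36, adjusted p = 3.1e-07), and Gabrp, a GABA receptor subunit of secretory epithelium, from 1067, 1358 and 1888 to 520.5, 688 and 886 CPM (−1.06, adjusted p = 2.5e-06), again with no overlap between groups. Cckar, a cholecystokinin receptor, stood at 0.684, 1.75 and 11.6 CPM at t0 and 2.73, 9.44 and 18.6 CPM at t4 (1.55, adjusted p = 0.018), so the groups overlapped. Its value was 2.64 without t0 359, and it was not called without t4 377 (1.27), in a fit of only the 12 libraries (1.64) or without both libraries rich in haemoglobin (1.46). Its baseline median was 167 CPM.

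Secreted defence proteins of the airway surface split by gene. Bpifa1, a surface protein with antibacterial activity, rose from 8607, 10850.4 and 14915 to 38970.4, 59184 and 133122 CPM (2.61 ± 0.33, adjusted p = 6e-07), with every t4 library above every t0 library. Bpifb1, from the same family, rose from between 230.2 and 1234 CPM to between 879 and 2146 CPM (1.48, adjusted p = 0.00068), and the gel-forming mucin Muc5b from between 677 and 2199 CPM to between 1649.8 and 3177 CPM (1.06, adjusted p = 0.0063), with ranges that overlapped for both. Lyz2, a lysozyme, rose from between 1595 and 5410.2 CPM to between 4219.5 and 12141 CPM (1.23, adjusted p = 0.0013). In the other direction, the beta-defensin Defb1 fell (−1.06, adjusted p = 8e-06), from between 10.7 and 22.4 CPM to between 5.47 and 9.25 CPM. Of 26 defence genes 5 were higher and 5 lower, with 3 lower without t4 335, without both libraries rich in haemoglobin and without the 4 libraries that stand apart. Of 17 goblet cell and mucin genes 5 were higher (3 without t4 377 or with library totals alone, 8 in a fit of only the 12 libraries) and 1 lower (2 without t0 359 or without t0 375). The lower member was the transmembrane mucin Muc20 (−1.38, adjusted p = 4.3e-06). Muc5ac, the mucin of goblet cell metaplasia, was at 5.28, 13.6 and 45.1 CPM at t0 and 21.7, 29.2 and 159 CPM at t4 and was not called (1.33, adjusted p = 0.088).

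Of 25 transcription factors that set airway identity, 3 were higher (5 without t0 367 or without t4 336) and 4 lower (7 with voom quality weights). Foxa2, a forkhead factor of secretory differentiation, rose from 4.26, 9.64 and 13.2 to 6.92, 27.6 and 36.8 CPM (1.52, adjusted p = 0.0001), with t4 336 inside the t0 range. Trp63, the master regulator of basal cells, fell from 38.7, 47.9 and 64.9 to 12.2, 18.4 and 29.3 CPM (−1.26 ± 0.19, adjusted p = 6.6e-06), with no overlap. Ehf, an epithelial ETS factor, fell less (−0.71, adjusted p = 0.00064). Of 15 alveolar genes, 4 were higher and 4 lower. Sftpb, a surfactant protein, on chromosome 6, 72304610 to 72314373, had the largest rise of the genes named by size, from 0.274, 2.07 and 3.45 to 22.9, 65.5 and 239 CPM (5.40 ± 0.64, adjusted p = 4.3e-07). Its value was 4.78 without t4 336, its highest library. Sftpa1 rose from between 23.5 and 81.7 CPM to between 51.8 and 256 CPM (2.07, adjusted p = 5.6e-05), with 1 t4 library in the t0 range and all 6 below the baseline range of 486 to 1242 CPM. Hopx and Emp2, which mark flat alveolar cells but are not confined to them, fell (−1.08 and −0.86, adjusted p = 1.3e-06 and 3e-06).

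**Figure D3:**
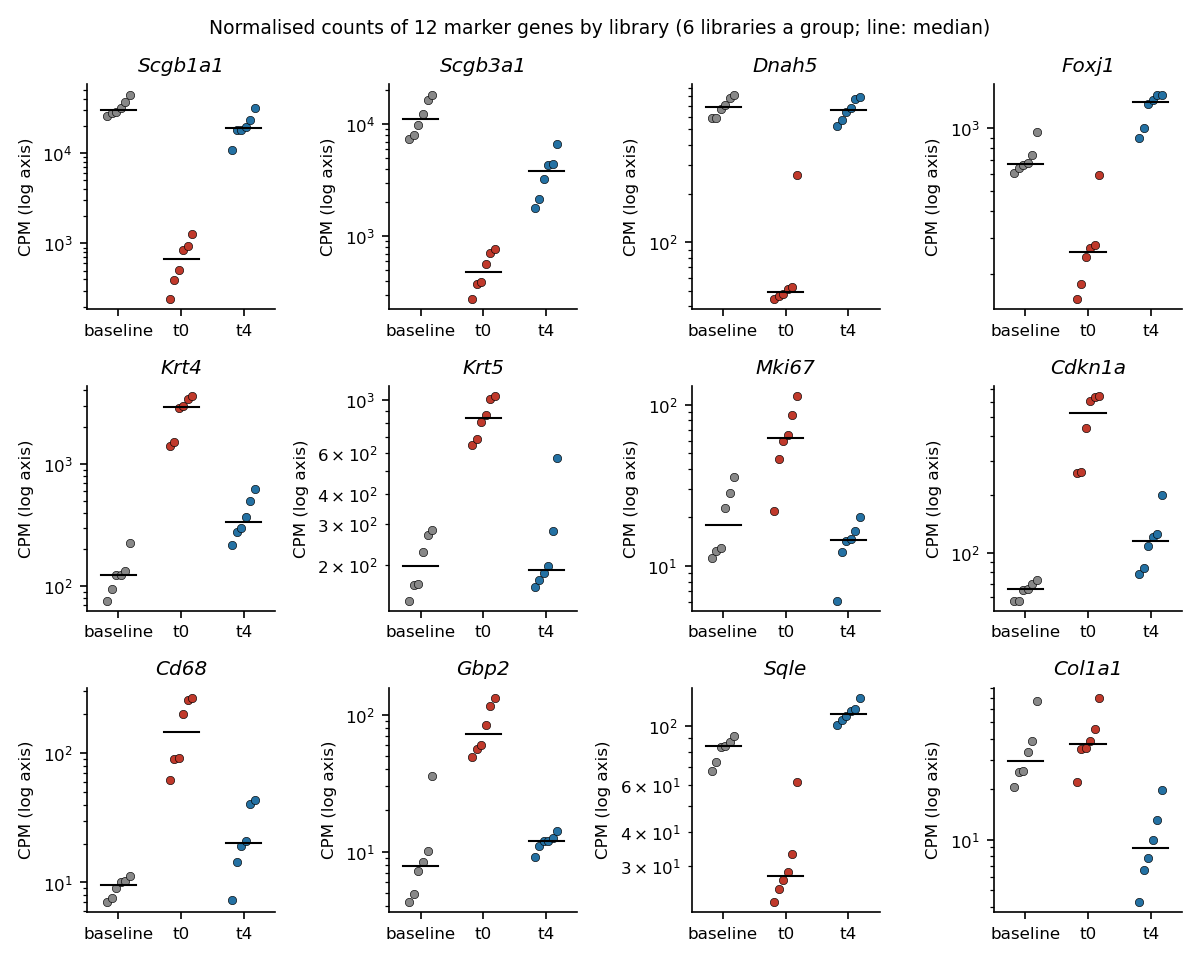
Normalised counts (CPM, log axis) of 12 marker genes in the 6 baseline (grey), 6 t0 (red) and 6 t4 libraries (blue), 1 point per library, with a line at the group median. Scgb1a1, Scgb3a1, Dnah5, Foxj1 and Sqle lie higher at t4 than at t0 in all 6 libraries, Krt4, Krt5, Mki67, Cdkn1a, Cd68, Gbp2 and Col1a1 lie lower, and t0 359 is the high t0 point of Dnah5, Foxj1 and Sqle.

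Transcripts of motile cilia were the most uniform group: all 31 axoneme genes tested were higher at t4, 28 of them with no overlap between groups, at a median log2 fold change of 2.35. Hydin, a giant protein of the central microtubule pair, on chromosome 8, 110266977 to 110610253, was at 22.2, 27.2 and 148 CPM at t0 and 339, 403 and 449 CPM at t4 (3.06 ± 0.36, adjusted p = 2.8e-07). Dnah5, an outer dynein arm heavy chain, was at 44.3, 49.3 and 261 CPM at t0 and 528, 661 and 792 CPM at t4 (2.98 ± 0.36, adjusted p = 3.6e-07), and Dnah9, its partner in the distal cilium, at 33.2, 41.7 and 199.7 CPM at t0 and 426, 549 and 617 CPM at t4 (2.99 ± 0.32, adjusted p = 1.1e-07). The high t0 value in each gene was t0 359, which at 261 CPM of Dnah5 still lay below every t4 library. Without that library the values were 3.86 for Hydin, 3.78 for Dnah5 and 3.71 for Dnah9, and the list median was 3.09. All 31 were called in every alternative tried. The inner-arm dynein Dnah2 rose from between 19.6 and 88.1 CPM to between 237 and 275 CPM (2.75, adjusted p = 6.3e-08), the tubulin Tuba1a from between 312 and 826 CPM to between 1353 and 1878 CPM (1.84, adjusted p = 7.9e-08) and the axonemal Cfap43 from between 51.4 and 184 CPM to between 304 and 442 CPM (2.24, adjusted p = 9.2e-08).

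Genes of intraflagellar transport, the traffic that builds cilia, followed with smaller changes: 25 of 26 were higher and 0 lower, with a median of 1.48 (1.80 without t0 359). Dync2h1, the retrograde motor, rose from 14.6, 17.1 and 51.9 to 83, 93.5 and 110.1 CPM (2.08 ± 0.23, adjusted p = 1.6e-07). Ift43, a subunit of the retrograde complex, rose from between 16.3 and 45.4 CPM to between 62.1 and 101 CPM (1.78, adjusted p = 1.4e-07), and Bbs9, a subunit of the BBSome coat, from between 15.1 and 24.7 CPM to between 40.3 and 57.8 CPM (1.45, adjusted p = 8.7e-08). The ranges of both genes did not overlap.

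Among 15 regulators of multiciliated differentiation, 7 were higher and 0 lower (median 0.68). Foxj1, the master factor of motile cilia, rose from 152, 256 and 595 to 897, 1331 and 1442 CPM (2.11 ± 0.26, adjusted p = 4.9e-07) and Rfx3, which acts with it on ciliary genes, from 9.45, 11.5 and 29.4 to 40.8, 58.5 and 64.8 CPM (1.95 ± 0.24, adjusted p = 4.8e-07). Trp73, a p53 relative upstream of Foxj1, rose from 11.9, 16.1 and 34.8 to 48.6, 70.7 and 86.7 CPM (1.88 ± 0.21, adjusted p = 1e-07). No t4 library of the 3 genes lay within the t0 range. The 8 that did not pass included Mcidas and Ccno, which act early, when cells amplify their centrioles (log2 fold changes of −0.39 and −0.14, named after their values were seen). Without the 4 libraries that stand apart, 8 of the 15 were higher.

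The promoter of Hydin shows the motif that Rfx factors bind. It is given as the 250 bases before the RefSeq start (GRCm38.p6, the assembly of mm10), chr8:110266727-110266976, plus strand, 5′ to 3′, with the RFX half-site GTTGCC, here in its reverse complement GGCAAC, in capitals. Lower-case bases on either side carry no meaning.
Hydin: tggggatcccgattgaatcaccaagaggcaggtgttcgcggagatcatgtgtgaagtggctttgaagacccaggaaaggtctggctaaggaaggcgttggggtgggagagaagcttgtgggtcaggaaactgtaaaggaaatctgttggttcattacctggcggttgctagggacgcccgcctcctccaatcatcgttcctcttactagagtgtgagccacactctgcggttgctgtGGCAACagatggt
A match to GTTGCC on either strand was found in 11 of the 27 axoneme genes with a promoter in the RefSeq table (40.7%), against 10.5% of all 27025 promoters of the same length and 11% of those of the genes tested. The 11 included Tekt1, Spag6, Drc1 and Sntn. This is a count of letters and says nothing of binding.

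The opposite held for squamous and hillock genes, the stratified program seen at t0. Of 35 listed, 29 passed the filter, 17 were lower at t4 and 1 higher (58.6% and 3.4%), at a median of −1.58. Krt4, a keratin of stratified and hillock cells, fell from 1393, 2912 and 3580.2 to 216, 333 and 628 CPM (−2.78 ± 0.30, adjusted p = 8.7e-08), and Evpl, the cornified envelope protein envoplakin, from 238, 563 and 781 to 66, 94.2 and 124 CPM (−2.44 ± 0.23, adjusted p = 2.7e-08). Scel, the envelope protein sciellin, fell from 41.9, 62.2 and 82.1 to 14.8, 20.3 and 22.8 CPM (−1.68 ± 0.19, adjusted p = 1.9e-07). None of these overlapped between groups, and the fall of Krt4 was 6.87-fold. Krt13, the partner keratin of Krt4, was at 103, 301 and 636 CPM at t0 and 16.4, 39 and 199.6 CPM at t4 (−2.45, adjusted p = 0.013), with the highest t4 value, inside the t0 range, in 336, and at −3.20 without it. Nccrp1 (−4.29, adjusted p = 2.7e-05) stood at 13.2 to 116 CPM at t0 and 0.583 to 4.99 CPM at t4, against a baseline median of 0.0849 CPM. Dmkn, an epidermal secreted protein, was the member that rose (2.5, adjusted p = 2.4e-08), from between 11 and 33.4 CPM to between 68 and 143 CPM. Without the 4 libraries that stand apart, 18 were lower.

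Genes outside that list with large falls or small p-values, named because they changed, are given next. Trim29, a protein of basal and squamous cells, fell from 78.6, 168 and 194 to 19.5, 27.2 and 37 CPM (−2.42 ± 0.19, adjusted p = 2.7e-09). Upk1b, a uroplakin of urothelium, fell from 737, 1078 and 1752 to 159.8, 241 and 276 CPM (−2.33 ± 0.18, adjusted p = 2.7e-09). Both had the t4 libraries entirely below the t0 libraries. Psca, a surface antigen of stratified epithelia, was at 60.5, 212 and 539.5 CPM at t0 and 0.736, 17 and 27 CPM at t4 (−4.20, adjusted p = 0.0017), and the keratin Krt78, of oesophageal type epithelium, at 2.9 to 21.8 CPM at t0 and 0.307 to 1.29 CPM at t4 (−4.31, adjusted p = 6.5e-06). Tgm5, an epidermal transglutaminase, fell (−4.31, adjusted p = 2.3e-05, or −4.98 without t4 377).

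Serpinb2, a protease inhibitor of injured epithelium and macrophages, fell from 66.9, 112 and 167 to 13.3, 18.4 and 43.9 CPM (−2.26 ± 0.52, adjusted p = 0.0012), with no overlap. Its t4 level was above baseline, where the median was 0.799 CPM (t4 over baseline 4.71 ± 0.61, adjusted p = 1.5e-05). Its promoter, chr1:107511173-107511422, plus strand, holds 1 TATA box, TATAAA, shown in capitals.
Serpinb2: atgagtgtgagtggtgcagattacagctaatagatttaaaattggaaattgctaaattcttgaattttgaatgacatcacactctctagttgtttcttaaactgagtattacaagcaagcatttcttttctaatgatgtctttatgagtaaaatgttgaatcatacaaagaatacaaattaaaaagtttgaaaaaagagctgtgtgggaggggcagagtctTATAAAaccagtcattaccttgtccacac
TATAAA on either strand was present in 7 of the 18 squamous and hillock genes with a promoter (38.9%) and in 4 of 14 club cell genes (28.6%), against 13% of all promoters and 6.89% of those of the genes tested. The 7 were Serpinb2, Krt10, Sprr1a, Sprr3, Ecm1, Rptn and Anxa1, and did not include Krt4, Evpl or Scel. Like the RFX count, it counts letters and says nothing of binding. In the wider serpin family, 3 of 16 were higher and 4 lower (2 lower without t4 348). Serpinb1a, an inhibitor of neutrophil proteases, fell (−1.74, adjusted p = 3.9e-06), while Serpinb12 rose from between 7.02 and 22.7 CPM to between 39.7 and 92.4 CPM (2.60, adjusted p = 1e-06).

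Basal cell genes were lower in part: 10 of 19 were lower and 0 higher, at a median of −0.85. Krt5, the keratin that marks basal cells, was at 649, 838 and 1039.8 CPM at t0 and 162, 192 and 570.1 CPM at t4 (−1.69 ± 0.28, adjusted p = 2.6e-05). The t4 maximum was again 336, without which the value was −2.08, and even with it no t4 library reached the t0 range. Aqp3, a water channel of basal cells, fell from 658, 897 and 1060.2 to 149.7, 191 and 624.9 CPM (−1.68, adjusted p = 3.7e-05, or −2.12 without t4 336). Col17a1, a collagen that anchors hemidesmosomes, fell from between 66.1 and 98 CPM to between 22.4 and 59.9 CPM (−1.19, adjusted p = 7.6e-05), and Lamb3, a chain of laminin-332, from between 70.5 and 109 CPM to between 25.8 and 97.9 CPM (−1.13, adjusted p = 0.00081), where t4 336 lay inside the t0 range. Of 15 genes of hemidesmosomes and laminin-332, 5 were lower (8 with voom quality weights) and 1 higher, the integrin Itga3 (0.70, adjusted p = 0.00064). Of 30 junction genes, 13 were lower and 0 higher (median −0.35), with 6 lower without both libraries rich in haemoglobin and 1 higher without t0 367 or without t0 375. The lower ones included the claudin Cldn23 (−1.42, adjusted p = 1.8e-05) and the desmosomal plakophilin Pkp1 (−1.58, adjusted p = 6.4e-05). Of 18 S100 and other calcium-binding genes, 8 were lower and 1 higher, with a median of −0.09, which was −0.58 without t4 371 and −0.63 without the 4 libraries that stand apart. Calml3, an epithelial calmodulin-like protein, fell from between 363 and 994 CPM to between 180.2 and 398 CPM (−1.52, adjusted p = 1.2e-06).

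Cell division genes were lower at t4. Of 34 genes of G2 and mitosis, 25 were lower and 0 higher (73.5%, median −1.48), and of 33 genes of the G1/S transition and DNA synthesis, 20 were lower and 0 higher (60.6%, median −1.05). Mki67, the antigen of cycling cells, was at 22, 62.1 and 113 CPM at t0 and 6.09, 14.5 and 20.2 CPM at t4 (−2.22 ± 0.39, adjusted p = 5.7e-05). Bub1b, a spindle checkpoint kinase, was at 5.87, 13.3 and 22.2 CPM at t0 and 1.66, 2.44 and 4.75 CPM at t4 (−2.22 ± 0.36, adjusted p = 2.1e-05), and Foxm1, the factor that drives mitotic transcription, at 10.1, 15 and 22.9 CPM at t0 and 5.31, 5.76 and 6.82 CPM at t4 (−1.36 ± 0.22, adjusted p = 1.4e-05). The groups were apart in all 3 genes, by under 2 CPM for Mki67 and Bub1b. Rrm1, which makes deoxynucleotides, fell from 34.9, 42.5 and 51.7 to 12.7, 15.9 and 19.9 CPM (−1.41 ± 0.19, adjusted p = 1.9e-06), and the helicase subunits Mcm5 and Mcm3, which open replication origins, fell by 1.84 and 1.89 on the log2 scale (adjusted p = 6e-06 and 8e-06). Their t4 medians, 5.91 and 5.2 CPM, were below the baseline medians of 10.5 and 7.81 CPM, and that difference passed for Mcm5 (adjusted p = 0.04) and not for Mcm3 (0.13). Without the 4 libraries that stand apart, 20 and 16 members of the 2 lists were lower.

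Cdc20, which activates the anaphase-promoting complex, fell from 13.5, 17.9 and 45.1 to 3.32, 7.64 and 8.25 CPM (−1.72 ± 0.30, adjusted p = 4.8e-05). Its promoter and that of Mki67 are shown for the elements that mitotic genes share, the CHR element TTTGAA and the CCAAT box, in capitals in either orientation (TTCAAA and ATTGG on the other strand). They lie at chr4:118437344-118437593 and chr7:135716380-135716629, both on the minus strand of GRCm38.p6, and are given 5′ to 3′ as read on that strand.
Cdc20: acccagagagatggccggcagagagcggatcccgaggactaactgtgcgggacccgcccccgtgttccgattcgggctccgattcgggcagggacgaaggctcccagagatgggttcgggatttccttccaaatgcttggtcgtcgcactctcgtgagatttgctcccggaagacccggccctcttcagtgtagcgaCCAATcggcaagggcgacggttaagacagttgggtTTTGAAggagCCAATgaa
Mki67: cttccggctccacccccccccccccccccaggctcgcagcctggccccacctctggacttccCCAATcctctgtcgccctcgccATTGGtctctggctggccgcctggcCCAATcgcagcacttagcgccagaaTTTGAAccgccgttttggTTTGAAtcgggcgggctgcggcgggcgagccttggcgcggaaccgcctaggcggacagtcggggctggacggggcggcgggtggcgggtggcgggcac
Cdc20 held 3 matches and Mki67 held 5. TTTGAA was present in 8 of the 28 G2 and mitosis genes with a promoter (28.6%), against 16.3% of all promoters and 10.7% of those of the genes tested. CCAAT was present in 21 of 28 (75.0%), against 34.5% and 35.9%. These too are counts of letters and say nothing of binding.

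Most targets of p53 were lower than at the end of exposure: 19 of 33 were lower and 2 higher (57.6% and 6.1%), and 18 of the 33 had all t4 libraries below all t0 libraries, at a median of −0.89. Cdkn1a, the cell-cycle inhibitor p21, was at 258, 525 and 642 CPM at t0 and 78.1, 115 and 199.6 CPM at t4 (−1.99 ± 0.23, adjusted p = 2e-07). Ccng1, cyclin G1, was at 177, 213 and 329.8 CPM at t0 and 47.5, 54.8 and 66.8 CPM at t4 (−2.07 ± 0.18, adjusted p = 6.6e-09), and Sesn2, a stress sensor, at 30.4, 37.3 and 45.2 CPM at t0 and 9.49, 11.1 and 18.8 CPM at t4 (−1.59 ± 0.15, adjusted p = 2.1e-08). Every t4 library of these genes lay below every t0 library. At t4, Ccng1 was also below baseline (−0.93 ± 0.17, adjusted p = 0.00054), Cdkn1a above it (0.89 ± 0.22, 0.0063), and Sesn2 at −0.05 against it (0.84). Zmat3, an RNA-binding target, fell from between 31.7 and 52.3 CPM to between 16.4 and 21.7 CPM (−1.18, adjusted p = 8.6e-08). Gdf15, a secreted stress cytokine, fell from 16.1, 36.4 and 89.2 to 0.817, 2.3 and 4.89 CPM (−4.01 ± 0.67, adjusted p = 3.1e-05). Psrc1, a spindle protein outside the list, fell from between 20.1 and 29.8 CPM to between 1.18 and 2.25 CPM (−4.09, adjusted p = 1.2e-07). The members that rose, 2 with all libraries and 4 without t0 359, were Polk, a polymerase that bypasses damaged bases (0.64, adjusted p = 0.0084), and the death receptor Fas (0.76, adjusted p = 0.03). All 6 t4 libraries of Polk lay below t0 359 and above the other 5 t0 libraries, and it was not called with library totals alone (0.51). Fas was not called without any 1 of t0 332, 357 or 367 or t4 335, 336 or 377, where it stood at 0.65 to 0.73, nor with library totals alone (0.62).

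DNA repair genes moved less as a set, 7 of 36 lower and 4 higher, with a median of −0.36. With limma or voom, 11 to 16 were lower. Mgmt, which removes alkyl groups from guanine, the kind of lesion NNK makes, fell from 14.9, 21.4 and 29.3 to 7.19, 9.39 and 11.3 CPM (−1.22 ± 0.21, adjusted p = 3.8e-05), with no overlap. Apex1, the abasic site nuclease, fell from between 14 and 22.3 CPM to between 5.34 and 11.6 CPM (−1.07, adjusted p = 0.0015). In the other direction, Ogg1, which cuts out oxidised guanine, rose from 10.7, 12 and 18.4 to 19.7, 30.8 and 36 CPM (1.21 ± 0.18, adjusted p = 4.4e-06) and the replication stress kinase Atr from between 10.1 and 23.8 CPM to between 21.9 and 29.9 CPM (0.80, adjusted p = 0.0003). For Ogg1 the groups were apart, and for Atr t0 359 lay within the t4 range.

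Macrophage genes had the largest share of lower members of the lists described here: 20 of 24 were lower and 1 higher (83.3% and 4.2%), at a median of −2.40, and 18 were lower without the 4 libraries that stand apart. Cd68, a lysosomal protein of macrophages, was at 62.1, 147 and 268 CPM at t0 and 7.35, 20.2 and 43 CPM at t4 (−2.73 ± 0.36, adjusted p = 1.3e-06). Fcgr1, the high-affinity IgG receptor, was at 5.78, 7.16 and 14.7 CPM at t0 and 0.415, 0.894 and 1.94 CPM at t4 (−2.98 ± 0.40, adjusted p = 1.4e-06), and the lysosomal protease Lgmn at 62.8, 86.1 and 131 CPM at t0 and 35.3, 45.1 and 56.2 CPM at t4 (−1.06 ± 0.16, adjusted p = 8.9e-06). No t4 library reached the t0 range of these genes, and Cd68 at t4 was still above baseline (1.41 ± 0.35, adjusted p = 0.0065), where its median was 9.54 CPM. The member that rose was Lyz2, which is also made by epithelium. Summed over the other members, macrophage transcripts were at 1447 to 3693 CPM at t0 and 563 to 858 CPM at t4, against 499.6 to 821 CPM at baseline. The defining marker Csf1r was not called (log2 fold change −0.45), and Adgre1 was not analysed here. The first component of complement, C1qa and C1qb, which macrophages make, fell (−1.15, adjusted p = 0.00026 and −1.03, adjusted p = 0.005).

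Lymphocyte genes gave few calls: 2 of 18 T and NK cell genes were lower (Cd2, −2.36, adjusted p = 0.0018, among them, and 1 without t0 375) and 0 higher, although the median was −1.26. Cd3e, the T-cell receptor chain, was at 0.772, 1.46 and 16.1 CPM at t0 and 0.588, 1.33 and 3.35 CPM at t4 (−1.38, adjusted p = 0.12), and at −0.09 without t0 375, which held the high t0 value. The list median moved to −0.09 without that library. Cd22, an inhibitory receptor of B cells, fell from 8.58, 27.6 and 45 to 0.49, 2.45 and 9.36 CPM (−3.10, adjusted p = 0.0011, or −3.82 without t4 348), with t4 ranging into the t0 values. Of 12 B and plasma cell genes, 3 were lower and 2 higher, with 0 higher without the 4 libraries that stand apart.

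Interferon-induced genes were lower at t4: 23 of 35 were lower and 1 higher (65.7% and 2.9%), at a median of −0.89, and 18 without the 4 libraries that stand apart. Gbp2, a GTPase that attacks pathogen vacuoles, fell from 49, 72.1 and 134 to 9.06, 12 and 14.2 CPM (−2.82 ± 0.47, adjusted p = 3e-05). Ddx58, the RNA sensor RIG-I, fell from 66.1, 73.5 and 84.5 to 26.4, 34.1 and 41.3 CPM (−1.14 ± 0.18, adjusted p = 1.5e-05), and Oasl1, an oligoadenylate synthetase-like protein, from 38.3, 41.7 and 73.2 to 7.82, 11.8 and 20.2 CPM (−1.88 ± 0.32, adjusted p = 3.4e-05). The 3 genes had t4 libraries entirely below the t0 libraries. Their standing against baseline differed: Ddx58 was below it at t4 (−0.89 ± 0.18, adjusted p = 0.0013), while Gbp2 (0.00) and Oasl1 (−0.16) were not called, and 8 of the 35 were lower than baseline, against 9.56% of all genes tested. Isg20, an antiviral exonuclease, was the member that rose (0.72, adjusted p = 0.014), and it was not called without t4 371 (0.51). The macrophage sum was lower in the same libraries, here and for the antigen presentation and cytokine genes that follow, and its part in their values was not tested.

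Genes of MHC class I presentation were lower, 13 of 19, with 0 higher (68.4%, median −1.21). Tapbp, the loading chaperone tapasin, fell from 304, 527 and 572 to 203, 210.2 and 248 CPM (−1.15 ± 0.13, adjusted p = 2.2e-07), the peptide transporter Tap1 from 85.9, 137 and 218 to 18.9, 35.5 and 62.8 CPM (−1.91 ± 0.31, adjusted p = 1.7e-05), and Psmb8, a subunit of the immunoproteasome, from 70.4, 134 and 237 to 29.8, 39.3 and 60 CPM (−1.87 ± 0.31, adjusted p = 2.5e-05). No t4 library of these genes reached its t0 range. Of 11 class II genes, 5 were lower, but 0 without t0 375 or without both libraries rich in haemoglobin, and 1 to 3 without any 1 of t4 340, 371 or 377. Without the 4 libraries that stand apart, 2 were lower. Cd74, the invariant chain, was at 232, 582 and 2121 CPM at t0 and 165, 267 and 538 CPM at t4 (−1.42, adjusted p = 0.023) and was at −0.83 and not called without t0 375. It was not called without t4 371 or without t4 377 either, nor with limma on log2(CPM + 1) in place of edgeR.

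Cytokine and checkpoint genes were lower in part, with 12 of 26 NF-kB and cytokine genes lower and 0 higher, and 8 of 17 checkpoint genes lower and 0 higher. The 12 became 7 without both libraries rich in haemoglobin or without any 1 of t0 375 or t4 335, 348 or 371. The 8 became 4 without t0 332, without t0 375 or without both libraries rich in haemoglobin, and 5 without t0 357, t4 340 or t4 371 or without the 4 libraries that stand apart. Rel and Rela, subunits of NF-kB, fell (−1.15, adjusted p = 0.00038 and −0.69, adjusted p = 0.0029). Icosl, a costimulatory ligand, fell from between 8.31 and 32.6 CPM to between 3.59 and 8.28 CPM (−1.51, adjusted p = 8.8e-05), and Cd80, another that is also a p53 target, from between 10 and 16.2 CPM to between 1.73 and 6.23 CPM (−2.25, adjusted p = 0.00032). Among 22 chemokines 6 were lower and 3 higher (1 with voom quality weights). The interferon-induced Cxcl9, which draws T cells, fell from between 2.54 and 21.7 CPM to between 0.192 and 1.23 CPM (−3.95, adjusted p = 0.0017, or −3.41 without t0 375). Cxcl17, a mucosal chemokine, rose from between 217 and 516 CPM to between 537 and 879 CPM (1.19, adjusted p = 2e-05), and was above its baseline (0.95, adjusted p = 0.0012).

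Sterol synthesis genes were higher, 16 of 23, with 0 lower (69.6%, median 0.89), 14 of them with no overlap. Srebf2, the transcription factor that switches the pathway on, rose from 141, 169.5 and 190.4 to 267, 327 and 368 CPM (0.97 ± 0.12, adjusted p = 3.7e-07). Sqle, squalene epoxidase, rose from 22, 27.5 and 61.8 to 100.1, 111 and 127 CPM (1.76 ± 0.19, adjusted p = 9.5e-08). All t4 libraries exceeded all t0 libraries for both genes. Srebf2 stood above baseline at t4 (0.87, adjusted p = 1.6e-05), and Sqle was not called (0.46, 0.079). Without the 4 libraries that stand apart, 15 of 23 were higher. Fads3, a fatty acid desaturase, had one of the smallest p-values of the genes ranked for naming. It rose from 14, 19.2 and 43.6 to 117, 129 and 142 CPM (2.46 ± 0.20, adjusted p = 2.7e-09). In the rest of the fatty acid synthesis list, 2 more of 20 were higher, Acsl3 (1.42, adjusted p = 9e-07) and Fads1 (0.90, adjusted p = 2.6e-06), and 2 were lower, among them Acsl1 (−0.68, adjusted p = 0.00044). The lower count was 1 without any 1 of t0 359, 367, 374 or 375 or t4 335, 348, 371 or 377.

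Genes that burn fatty acids were lower in part, 8 of 19, with 1 higher (0 without any 1 of t0 332, 357, 367 or 375 or t4 335, 340, 348 or 377). Hadha, the trifunctional enzyme of beta-oxidation, fell from 161, 186 and 217 to 94.2, 117 and 133 CPM (−0.70 ± 0.11, adjusted p = 6.9e-06), and Cpt1a, the gate for mitochondrial import, from between 129.5 and 191 CPM to between 66.6 and 129.7 CPM (−0.78, adjusted p = 0.00011), where the groups overlapped by under 1 CPM. Ribosomal protein genes, whose pseudogenes can share their reads, were lower in 25 of 55 and higher in 0 (median −0.56), and in 41 with library totals alone. Rplp0, of the ribosomal stalk, fell from between 1525 and 2071 CPM to between 689 and 1269.8 CPM (−0.88, adjusted p = 0.00012). Of 44 respiratory chain genes 9 were lower and 0 higher. Without t0 374, 1 gene of each of these 2 lists was higher. In glycolysis and hypoxia 7 of 28 were lower (4 without both libraries rich in haemoglobin), including Ldha (−0.94, adjusted p = 9.6e-05) and Pkm (−0.64, adjusted p = 0.00074), and 6 were higher, including the glucose transporter Slc2a1 (1.01, adjusted p = 3e-05) and the mitophagy receptor Bnip3 (1.89, adjusted p = 3.5e-07).

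Heat shock genes were higher in 10 of 20 and lower in 0, at a median of 0.75, which moved to 0.11 without t4 336. Without t4 336 or without the 4 libraries that stand apart, 5 were higher and 1 lower. Without t0 357, 5 were higher, without t0 332 or without t0 375, 6, and with limma or voom, 5. Hspa4l rose from 38.9, 60 and 125 to 126, 186 and 322 CPM (1.61 ± 0.22, adjusted p = 1.5e-06). Hsph1, a partner of HSP70, was at 88.8, 147 and 258 CPM at t0 and 212, 373 and 1418 CPM at t4 (1.73 ± 0.34, adjusted p = 0.00019), with t4 336 the highest, and at 1.13 without it. Of 27 genes of the unfolded protein response 7 were higher and 0 lower, against 4 and 1 without the 4 libraries that stand apart. Creld2, of the endoplasmic reticulum, rose from between 51.5 and 60.3 CPM to between 82.3 and 127 CPM (0.74, adjusted p = 2.4e-05).

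Detoxifying enzymes split by gene. Of 38 phase I enzymes, 7 were higher and 9 lower, and of 33 phase II enzymes, 3 (1 without the 4 libraries that stand apart) and 9. Cyp2s1, an airway cytochrome P450, rose from 101, 129 and 287 to 549.7, 643 and 755 CPM (2.02 ± 0.24, adjusted p = 2.5e-07). Ephx1, an epoxide hydrolase, fell from 315, 534 and 678 to 140.0, 188 and 198 CPM (−1.53 ± 0.18, adjusted p = 1.9e-07), to below its baseline (−0.93, adjusted p = 0.00055). Both had groups that did not overlap. Carboxylesterases of the Ces2 family have near-identical copies, which make the assignment of reads uncertain. They included Ces2f, with the smallest p of the genes ranked for naming. It fell from 29.9, 32.9 and 49.8 to 2.86, 4.03 and 5.13 CPM (−3.11 ± 0.21, adjusted p = 2.3e-10). Ces2e fell as well (−4.57, adjusted p = 1.8e-06). Ugt1a7c, a glucuronosyltransferase that shares exons with its neighbours, fell (−2.89, adjusted p = 2.9e-05). Of 21 targets of the oxidant sensor NRF2, 7 were lower (11 with voom quality weights) and 2 higher (0 with library totals alone). Taldo1, of the pentose phosphate pathway, fell from between 339.7 and 573 CPM to between 215 and 284 CPM (−0.94, adjusted p = 1e-06), as did G6pdx, the first enzyme of that pathway (−1.07, adjusted p = 7.7e-05).

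Signalling genes were called member by member rather than as lists. In the Notch list, 5 of 19 were higher and 2 lower. The lower count was 1 without any 1 of t0 332, 357 or 367 or t4 335, 340, 348 or 377, and 4 without the 4 libraries that stand apart. Notch1, the receptor, fell from 118, 139.6 and 162 to 54.5, 71.4 and 80.2 CPM (−0.99 ± 0.15, adjusted p = 8e-06). Dtx1, a Notch-binding ligase, rose from 6.43, 8.18 and 23 to 43.1, 52.6 and 58 CPM (2.33 ± 0.26, adjusted p = 1.5e-07) and Hey1, a target of the receptor, from between 8.1 and 24.7 CPM to between 20.5 and 43.6 CPM (1.09, adjusted p = 9.3e-05). In the Wnt list 7 of 25 were higher and 4 lower (2 lower without both libraries rich in haemoglobin or without the 4 libraries that stand apart). The ligands Wnt5b and Wnt11 rose (2.12, adjusted p = 2.4e-08 and 2.37, adjusted p = 2.9e-07), Wnt5b from 3.69, 6.83 and 8.99 to 22.4, 30.1 and 33.4 CPM. Wnt4 fell from 220.0, 346 and 1174 to 88.2, 118 and 178 CPM (−1.86 ± 0.31, adjusted p = 2.9e-05), and Lgr6, a receptor for R-spondin, rose from between 14.4 and 39 CPM to between 77.3 and 136 CPM (1.89, adjusted p = 8.6e-07).

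In the TGF-beta and mesenchymal list, 9 of 24 were lower and 3 higher. Tgfb1, the cytokine, fell from 18.9, 41.7 and 62.8 to 8.82, 12.3 and 18.9 CPM (−1.73 ± 0.27, adjusted p = 1.4e-05) and the intermediate filament Vim from 107, 172 and 281 to 29.3, 55.6 and 61.9 CPM (−1.83 ± 0.27, adjusted p = 6.9e-06). The macrophage sum above fell with them, and its part in these values was not tested. Clock genes gave 6 of 21 higher (3 without the 4 libraries that stand apart) and 3 lower. Hlf, an output factor of the clock, fell from between 21.7 and 41.4 CPM to between 7.82 and 12.3 CPM (−1.57, adjusted p = 8.1e-08), and the clock repressors Per2 and Cry1 rose (1.06, adjusted p = 0.00021 and 0.85, adjusted p = 0.00034). The hour of brushing is not given in the sources used here.

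The higher calls among MAPK feedback genes rested on 1 library. Of 20 such genes, 3 were higher (Phlda1, Dusp6 and Spred1) and 1 lower, and 0 were higher without t4 336. The lower one was the phosphatase Dusp10 (−0.83, adjusted p = 0.0059), called in every alternative run. Phlda1, induced by ERK signalling, was at 35.2, 55.6 and 77.4 CPM at t0 and 35.3, 70.2 and 739.8 CPM at t4 (1.85, adjusted p = 0.013), the highest value in 336. Areg, the ligand amphiregulin and the 1 higher gene of 12 EGFR ligands and receptors, was at 5.74, 8.31 and 24.3 CPM at t0 and 4.89, 14.4 and 192 CPM at t4 (2.02, adjusted p = 0.045), and Dusp6, an ERK phosphatase, at 92.1, 130.2 and 175 CPM at t0 and 128, 173 and 746 CPM at t4 (1.02, adjusted p = 0.019). Without t4 336 they stood at 0.72, 0.56 and 0.37 and were not called. Neither limma nor voom called them with that library in. Areg was also not called without any 1 of t0 332, 357, 367, 374 or 375 or t4 335. In its list of 12 genes, 1 was lower, at a list median of −0.26. The lower count was 0 without t0 367, 3 without t4 336 and 6 with voom quality weights. Library t4 336 was also the highest of t4 for Krt5, Aqp3 and Lamb3 above.

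**Figure D4:**
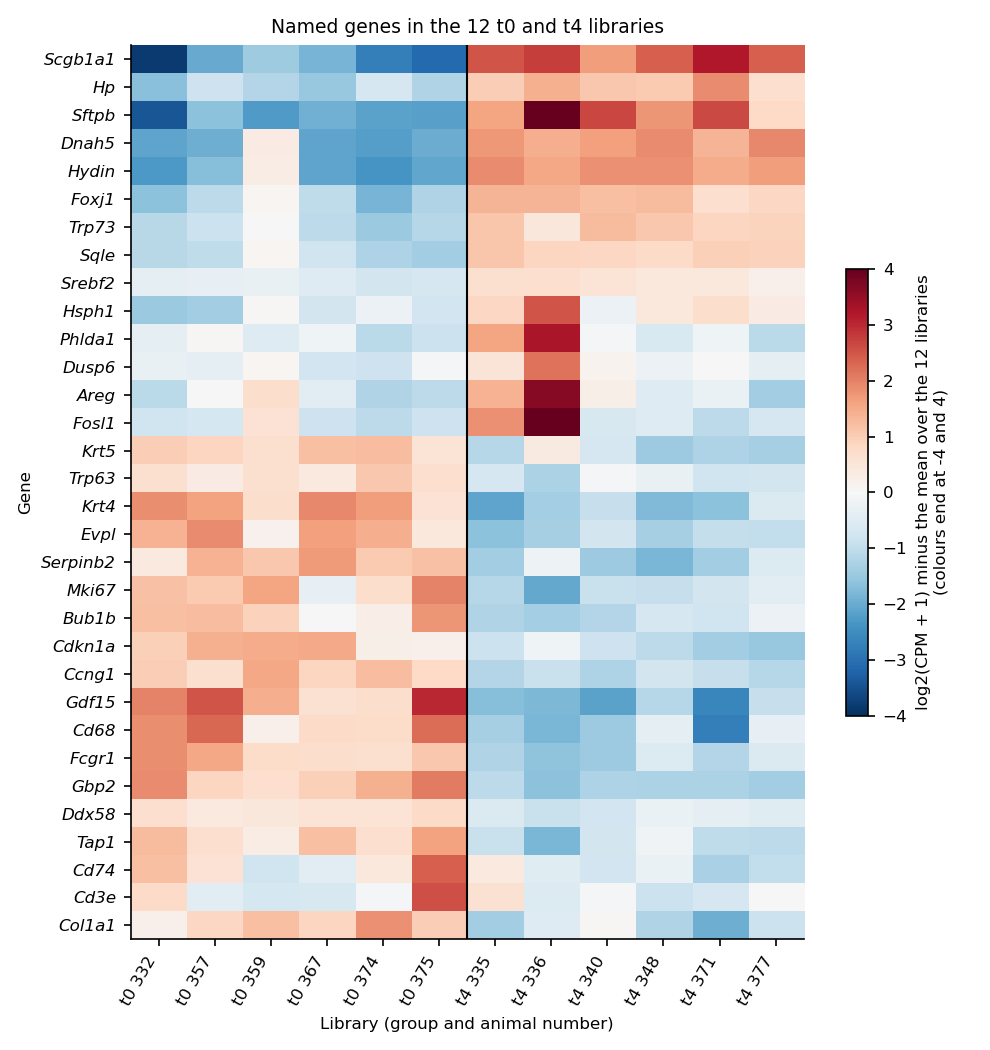
Heat map of 32 named genes (rows) in the 6 t0 and 6 t4 libraries (columns, by animal number); colour is log2(CPM + 1) minus the gene's mean over the 12 libraries, red above and blue below, with colours ending at −4 and 4. Scgb1a1, Hp, Dnah5 and Hydin are higher in all 6 t4 libraries, t0 359 is paler than the other t0 libraries for Dnah5, Hydin, Foxj1 and Sqle, t4 336 stands out for Phlda1, Dusp6 and Areg, and t0 375 for Cd74 and Cd3e.

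Several of the largest changes lay outside the lists. Atg9b, a relative of the autophagy lipid scramblase, fell from 49.6, 108 and 159.8 to 1.94, 2.76 and 4.75 CPM (−5.13 ± 0.57, adjusted p = 1.6e-07). It remained above baseline (4.17 ± 0.69, adjusted p = 0.00018), where its median was 0.16 CPM. Plcd4, a phospholipase C, fell from 4.25, 13.2 and 18.3 to 0.0817, 0.289 and 0.497 CPM (−5.33 ± 0.73, adjusted p = 1.8e-06), and Gria3, a glutamate receptor subunit, from 4.99, 8.88 and 18.4 to 0.245, 0.46 and 0.83 CPM (−4.35 ± 0.46, adjusted p = 8.1e-08). Each had t4 libraries entirely below t0. Among the rises, Tymp, thymidine phosphorylase, went from 3.95, 12.9 and 33.8 to 115, 134 and 194 CPM (3.32 ± 0.40, adjusted p = 3.9e-07) and Cacna1h, a T-type calcium channel, from 11.6, 13.3 and 40.9 to 118, 148 and 210.2 CPM (3.05 ± 0.27, adjusted p = 1.1e-08). Both ended above baseline (1.31 and 1.53, adjusted p = 0.014 and 0.00018). Of the 3 genes tested of the family of the deleted receptor, 1 was higher and 1 lower. Gprc5b fell (log2 fold change −1.39, adjusted p = 6e-05, named after its values were seen), and Gprc5c rose from 49, 55.6 and 92.2 to 125, 176 and 290.2 CPM (1.61 ± 0.18, adjusted p = 1.2e-07).

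Set beside baseline, 2907 genes (19.6%, with 10% higher and 9.56% lower) were called for t4 and 6761 (45.5%, with 23.3% higher and 22.3% lower) for t0. These comparisons share libraries with each other and with t4 against t0, so their values are given side by side and not tested against each other. The median of the axoneme list was −2.05 at t0 and 0.29 at t4, that of mitotic genes 1.41 and −0.19, that of macrophage genes 3.15 and 0.60, and that of squamous and hillock genes 2.09 and 0.86. Club cell genes stood at medians of −1.13 and −0.92, with 14 of 20 lower at t0 and 13 of 20 lower at t4. Scgb1a1 at t4 was not called against baseline (−0.68, adjusted p = 0.16), whereas Scgb3a1 was lower (−1.68 ± 0.31, 0.00057), and so was Hp (−1.56 ± 0.32, 0.0015). Krt4 was above baseline at t4 (1.56 ± 0.28, 0.00043), and Krt5 was not called (0.32, 0.43).

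Genes called in t4 against t0 could still differ from baseline, on either side. Muc13, a transmembrane mucin, fell from 25.4, 73.4 and 164 to 2.98, 10.2 and 22.4 CPM (−2.98 ± 0.55, adjusted p = 0.00011), and at t4 was still above a baseline median of 0.176 CPM (4.92 ± 0.67, adjusted p = 2.1e-05). Akr1c18, a steroid dehydrogenase, showed another order: its baseline and t0 medians were 97.8 and 147 CPM, and t4 libraries held 8.47, 17.8 and 23.9 CPM (−3.16 ± 0.33, adjusted p = 8.7e-08). The t4 libraries were thus below both earlier groups (−2.69 ± 0.33 against baseline, adjusted p = 4.6e-06).

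**Figure D5:**
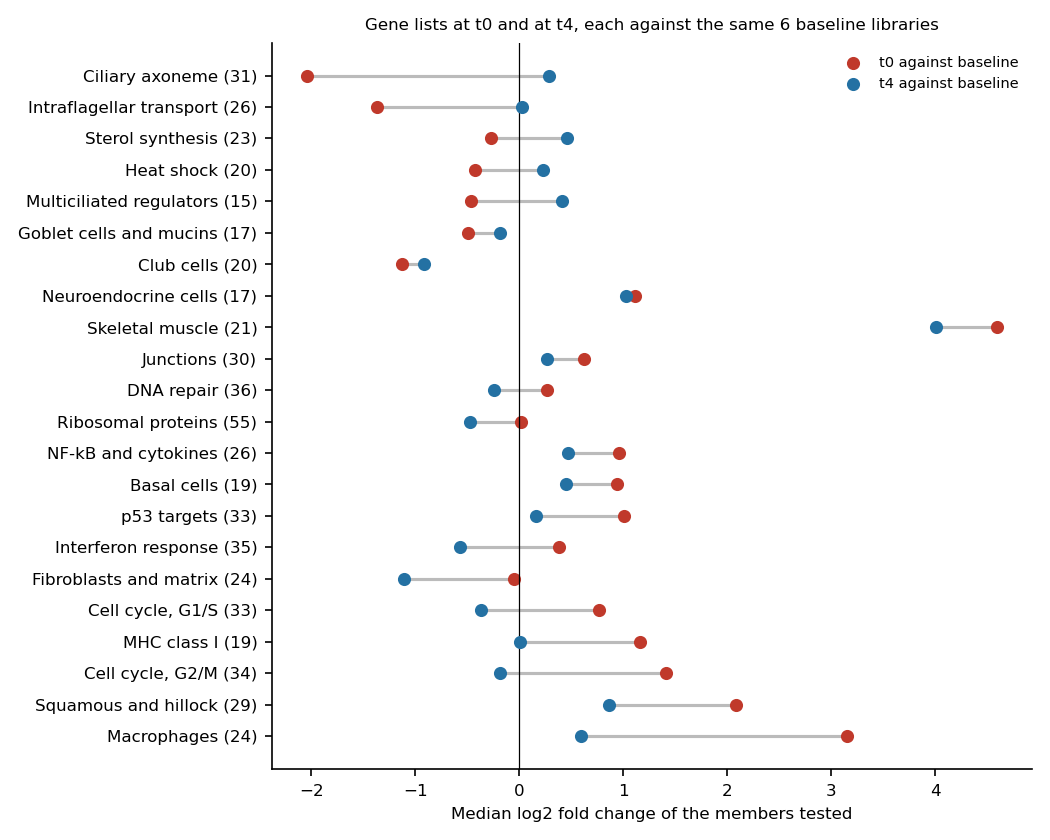
Median log2 fold change (x axis) of the members tested of 22 gene lists at t0 (red) and at t4 (blue), each against the same 6 baseline libraries, joined by a grey line, with the number of members in brackets. The axoneme list moves from −2.05 to 0.29 and the macrophage list from 3.15 to 0.60, club cells stay at −1.13 and −0.92, and the red and blue points share the baseline libraries, so no test joins them.

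Matrix genes were lower in part at t4, against t0 and against baseline. Of 24 fibroblast and matrix genes, 11 were lower at t4 than at t0 and 0 higher (median −0.98), with 7 lower without t0 374, without both libraries rich in haemoglobin or without the 4 libraries that stand apart, and 12 were lower at t4 than at baseline. Col1a1, the main fibrillar collagen, fell from 21.9, 37 and 70 to 4.25, 8.87 and 19.7 CPM (−2.0 ± 0.37, adjusted p = 0.0001), with a baseline median of 29.5 CPM (−1.78 ± 0.37 against baseline, adjusted p = 0.0014). Eln, elastin, fell from between 12.4 and 27.7 CPM to between 1.96 and 14.6 CPM (−1.85, adjusted p = 0.0004), with overlap. The summed level of the list was 333 to 763 CPM at t0 and 129 to 349 CPM at t4.

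Markers of other cells that a tracheal brush can pick up were measured in the same way. Of 21 skeletal muscle genes and 17 neuroendocrine genes, 0 were called in either direction between t4 and t0. Against baseline, 17 muscle genes were higher at t0 and 16 at t4, and 10 neuroendocrine genes were higher at each time. The muscle list summed to 34, 57.55 and 346 CPM at t0 and 43.8, 142 and 183 CPM at t4, against 28.1, 46.8 and 94 CPM at baseline. At t0 only 357 (274 CPM) and 367 (346 CPM) lay above the baseline range, and at t4, 335 and 371 lay within it. Of 11 red cell genes 0 were called, but 9 were higher without t0 357 and 2 without both libraries rich in haemoglobin. Their median log2 fold change was 0.81 with all libraries, 4.81 without t0 357 and −1.44 without t4 371, and Hba-a1 ran from 48.1 to 87479.7 CPM at t0 and from 1050.3 to 101271 CPM at t4. Of 15 endothelial genes 3 were lower (1 without the 4 libraries that stand apart, 7 with voom quality weights) and 0 higher, with summed levels of 46.8 to 130 CPM at t0 and 29.7 to 43.9 CPM at t4. In smooth muscle, 5 of 11 were higher and 1 lower, but 2 were higher without t4 377, 3 without t4 340 or without the 4 libraries that stand apart, and 0 with voom quality weights.

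The rare chemosensory and ion-handling cells gave mixed values. Of 11 tuft cell genes 4 were lower (2 without t0 357) and 0 higher (1 without t4 377). Plcb2, a phospholipase of taste signalling, fell from 15, 48.1 and 74.2 to 6.68, 10.1 and 15.3 CPM (−2.17 ± 0.34, adjusted p = 9.8e-06), with 1 t4 library just inside the t0 range, while the tuft channel Trpm5 was at 6.12, 14.1 and 25.2 CPM at t0 and 7.58, 13.7 and 46.9 CPM at t4 (0.34, adjusted p = 0.66). Alox5ap, which feeds leukotriene synthesis in tuft and myeloid cells, fell as well (−1.77, adjusted p = 0.00021). Ionocyte genes gave 2 higher and 2 lower of 11, with 1 lower without any 1 of t0 374 or 375 or t4 336, 340, 348 or 377 or without the 4 libraries that stand apart. The proton pump subunit Atp6v1c2 rose from 7.47, 16 and 29.9 to 77.2, 102 and 117 CPM (2.53 ± 0.26, adjusted p = 7.3e-08), Atp6v0d2, a subunit also of macrophages and osteoclasts, fell from between 29.6 and 89.2 CPM to between 1.14 and 19.7 CPM (−2.74, adjusted p = 0.0005), and the ionocyte factor Foxi1 was not called (−0.88, adjusted p = 0.27).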

How the data were processed

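RNA of tracheal brushings from 1 mouse per library was selected for RIN of at least 7, and poly-A libraries were read on an Ion Proton sequencer, per the labels' protocols. The deposited table is named as RPKM by the authors, but its values were taken as estimated counts per gene, since 76.3% of those above 0 are whole within 0.01 and the totals differ between libraries. Whether the authors scaled them in another way is not given in the sources used here. STAR 2.4.1d, Bowtie2 2.1.0, Partek and mm10 are named in the submitters' processing notes. Their roles, the counting and its use of strand are not given in the sources used here, so overlapping, antisense and duplicated genes are uncertain. Coordinates are those of the table.

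After rounding of the counts, the 14847 genes that reached 1 CPM in 5 or more of the 28 Gprc5a-/- libraries were fitted in edgeR 4.0.16 (TMM, quasi-likelihood, 1 mean per group), with Benjamini-Hochberg adjustment over all of them and a threshold of 0.05. The 28 libraries share 1 estimate of spread. On data simulated from t4 against t0 over 14847 genes, 67, 67 and 66 genes were changed by 1.5, 2 and 4 times. Of these, 19.4%, 62.7% and 77.3% were found. Far fewer genes changed there than the 4953 called in the data, which makes the adjustment stricter. These shares need not hold for the data. Wild-type libraries, processed separately, were not used here.

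The members, gene lists and motifs were chosen with earlier results of these data known. Named genes are the 15 largest rises and falls whose groups do not overlap, the 10 smallest p-values in each direction, up to 5 called members of each list, the 5 highest and 5 lowest against baseline at t4 that were also called here, and a set of defining markers, of which the text gives a part. The largest rises and falls needed a mean of at least 5 CPM in the higher group. Symbols of the form Gm plus digits, ending in Rik or turned into dates were left out of these rankings. Mcidas, Ccno, Csf1r and Gprc5b were added after their values were seen. Alternatives were DESeq2 1.42.0, limma 3.58.1 (pseudocounts of 1 and 0.1, voom), other scalings, filters, samples and covariates, and each library left out.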

Additional observations from a re-analysis of the deposited data

Results flagged for a closer look

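In a group of 6 libraries a value was singled out when its gap to the nearest other library exceeded 0.625 of the group's range. For genes, gap and range were taken on log2(CPM + 1), and for library measures on the values themselves. Chance meets this rule in about 1 in 20 groups. Of 316 groups of values examined, 35 met this, 15 of them in t0 359 and 9 in t4 336. Haemoglobin took 22.8% of counts in t0 357 and 25.5% in t4 371. On component 1, t0 359 scored −5.16. The total of t4 335 was 29979837 counts (29.98 in units of 1000000), against 15625264 to 20718621 counts in the other t4 libraries.

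In t0 359, ciliary and differentiation genes were high for the group: Dnah5 at 261 CPM, Hydin at 148 CPM, Dnah9 at 199.7 CPM, Cfap43 at 184 CPM (51.4 to 73.7 CPM in the others), Ift43 at 45.4 CPM, Dync2h1 at 51.9 CPM and Rfx3 at 29.4 CPM. The same library was high for Polk (52.3 CPM), Ogg1 (18.4 CPM), Dtx1 (23.03 CPM), Bnip3 (20.1 CPM) and Cckar (11.6 CPM), and low for Muc20 (91.7 CPM, against 143 to 184 CPM) and Tapbp (304 CPM, against 454 to 572 CPM). In the other t0 libraries, Sftpb was at 0.274 CPM and Creld2 at 51.5 CPM in t0 332, both the lowest, and Oasl1 at 73.2 CPM and Fads1 at 35.5 CPM in t0 367, both the highest.

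In t4 336, Dusp6 stood at 746 CPM (128 to 233 CPM in the other t4 libraries), G6pdx at 197 CPM, Slc2a1 at 166 CPM, Cry1 at 46.2 CPM, Spred1 at 58.1 CPM and Cd80 at 6.23 CPM, each the highest of t4. In the same library Foxa2 (6.92 CPM, against 24.3 to 36.8 CPM), Cldn23 (28.9 CPM, against 55.2 to 69.0 CPM) and Defb1 (5.47 CPM) were the lowest. In t4 377, Muc5ac at 159 CPM (21.7 to 33.0 CPM in the others), Krt78 at 1.29 CPM and Psrc1 at 2.25 CPM were the highest of t4, and Notch1 at 54.5 CPM the lowest. By Xist and Y-linked counts, t0 and t4 each held 3 male and 3 female libraries.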

How the results depend on the processing

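Leaving out each of the 12 libraries in turn gave 4419 (without t4 335) to 5233 called genes (without t0 359), and 2303 to 2791 of at least 2-fold. The 13 other alternatives gave 4073 (without both libraries rich in haemoglobin) to 6475 (voom with library quality weights), and 2203 to 2946 of at least 2-fold. These stayed within 1.5 times of 4953 and 2547. Leaving out t0 357, t0 359, t4 336 and t4 371 together, an alternative chosen after seeing the data, gave 4375, of which 3993 were among the 4953. No gene called in the comparison was called in the opposite direction under any of these. Of 3346 values of named genes with a library left out, 98 lost and 3 gained a call, and of 3601 under the other alternatives, 119 and 3. A fit of only the 12 libraries called 1 basal cell gene and 1 gene of G2 and mitosis higher, against 0. No paired analysis was possible because each animal number belongs to 1 mouse and none is shared between groups. The labels call each library a separate mouse and give no batch. At 15625264 to 30271690 counts a library and 6 libraries a group, genes near 1 CPM rest on few counts. Most 1.5-fold changes were missed in the simulation, in which far fewer genes changed than were called here. The share missed in the data is not known.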
